A study of Danio rerio with 9 samples.

Results

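A pair of transgenic zebrafish lines that overexpress different mesodermal transcription factors were compared directly with each other. The comparison uses 6 of the 9 samples of the series: 3 of tg(*hsp70l:tbx16*) and 3 of tg(*hsp70l:msgn1*), called below the *tbx16* line and the *msgn1* line. The 3 wild-type samples entered the same fit and are given beside the lines as a reference level. All samples were poly(A) RNA from the tailbud, cut just behind the last somite, and each pooled 10 tailbuds of the Tüpfel long fin background. All embryos, wild type included, were heat shocked for 30 min at the 2–3 somite stage and dissected after a recovery of 3 h; the labels give 28 °C as the heat-shock temperature and the study's methods a higher one. In both lines the *hsp70l* promoter drives the transgene in every tissue, not only in cells that normally express the factor. Samples of the *tbx16* line came from outcrosses of homozygous fish, whereas those of the *msgn1* line were PCR-genotyped carriers from outcrosses of heterozygous fish, and their siblings without the transgene were pooled as wild type. The transgene and the parents of the embryos therefore cannot be told apart in this comparison.

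*tbx16* encodes a T-box transcription factor and *msgn1*, mesogenin 1, a basic helix-loop-helix transcription factor. Both act where mesodermal progenitors leave the posterior tailbud and become presomitic mesoderm, the unsegmented tissue from which somites form. T-box factors bind DNA through the T-box domain and helix-loop-helix factors through E-box sequences, and the factors belong to unrelated protein families. The tailbud also holds neural, notochord, endothelial, pronephric and surface cells, and tailbud preparations can carry yolk syncytial layer, so the comparison is given for each of these tissues in turn.

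The full coding sequences carried by the transgenes were cloned by the study with designed primers. The forward primers are shown because they mark the start of each transgene's coding sequence, with the ATG start codon in capitals, 5′ to 3′.
*tbx16* forward primer: atcgatATGcaggctatcagag
*msgn1* forward primer: atcgatATGgcgcaaatcgacg
A read from the transgene's coding sequence counts for the gene of the same name, so *tbx16* and *msgn1* counts sum endogenous and transgenic RNA.

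Values are normalized counts, meaning counts scaled by TMM factors to the mean library size of the 9 samples. The 3 values of a line are always given in replicate order. *tbx16* reached 33442, 39068 and 22575 normalized counts in the *tbx16* line, 10524, 13991 and 12816 in the *msgn1* line and 13302 to 14899.9 in wild type. Every sample of the *tbx16* line was above every other sample, and the difference between the lines was 2.55-fold (log2 difference 1.35 ± 0.19 SE, edgeR adjusted p = 5.66e-04). *msgn1* reached 76390.2, 57136 and 78341 in the *msgn1* line, 13998, 17997 and 23405 in the *tbx16* line and 28072 to 35589.7 in wild type. All samples of the *msgn1* line were the highest of the series for *msgn1*, and the lines differed 3.82-fold (log2 difference -1.94 ± 0.20 SE, edgeR adjusted p = 1.16e-04). The difference in *msgn1* therefore has both lines away from the wild-type mean, with the *tbx16* line below wild type and the *msgn1* line above it.

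Counts summed to between 30750552 and 49654769 per sample, with the *msgn1* line shallower (30750552 to 38010466) than the *tbx16* line (39924412 to 49654769). A principal component analysis of the 9 samples placed the *tbx16* line apart on the first component (50.6% of the variance, 96.3 to 110.61 against -72.7 to -45.4 for the *msgn1* line), and wild type lay at -47.8 to -38.9. *msgn1*-line replicate 3 stood apart on the second component (13.9% of the variance, at -81.8), as did wild-type replicate 3 to a lesser degree (-39.8). The 10 most abundant genes took 8.60% and 8.68% of the counts in *msgn1*-line replicates 1 and 3, against 5.49% to 6.65% in the other 7 samples. No label names a batch, and nothing says whether equal replicate numbers mean the same day or clutch.

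Of 19914 genes that passed the low-count filter, 7637 (38.3%) differed between the lines at an adjusted p of 0.05 in edgeR's quasi-likelihood test with Benjamini-Hochberg adjustment, and 5920 (29.7%) also differed by at least 1.5-fold. Below, "called" means both. Among all tested genes 3071 (15.4%) were called higher in the *tbx16* line and 2849 (14.3%) lower, and the median log2 difference was 0.05; these shares are the background for every list. At an unadjusted p of 0.05 the share was 48.3%, at any fold 18.5% were higher and 19.8% lower, and the values of the lines did not overlap for 51.1%. Differences of at least 2-fold were called for 1970 genes higher (9.89%) and 1597 lower (8.02%) in the *tbx16* line, of at least 4-fold for 736 (3.7%) and 611 (3.07%), and of at least 8-fold for 390 (1.96%) and 268 (1.35%). The balance of directions depended on the scaling: with library size alone the median log2 difference moved from 0.05 to 0.38, and 5309 genes were called higher and 1432 lower (78.8% higher, against 51.9% with TMM). The plot of all tested genes shows the spread of differences by abundance.

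**Figure D1:**
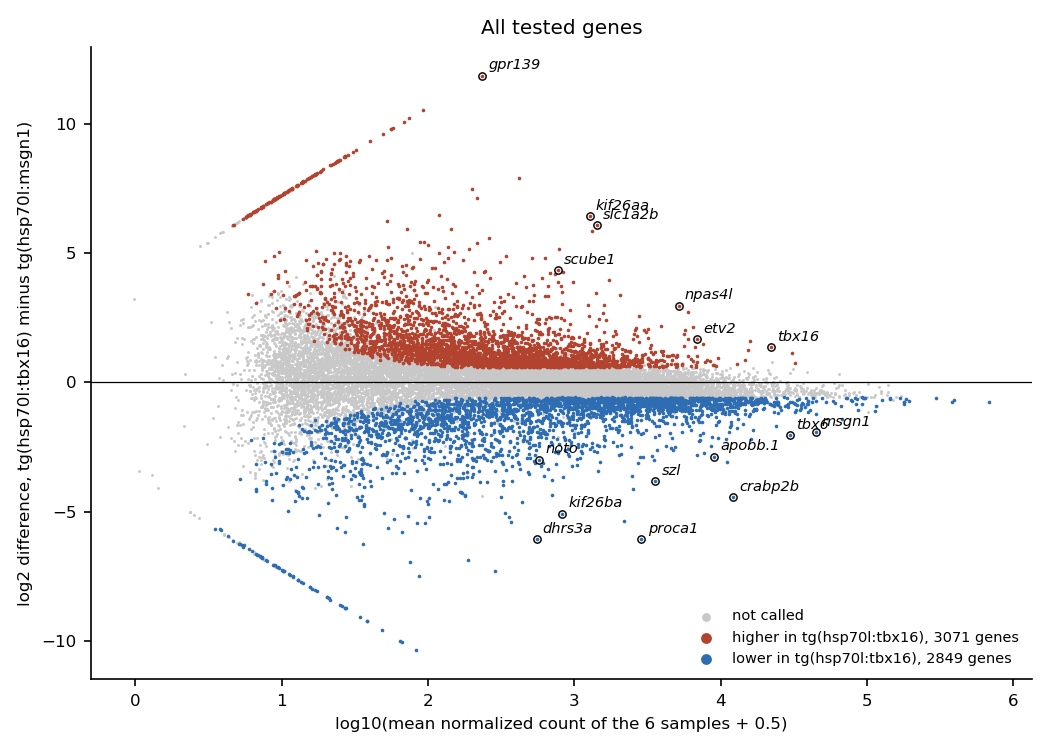
Log2 difference between the lines (tg(*hsp70l:tbx16*) minus tg(*hsp70l:msgn1*)) against the log10 mean normalized count of the 6 samples for each of 19914 tested genes. Red points are the 3071 genes called higher and blue points the 2849 called lower in the *tbx16* line, open circles mark named genes, and the diagonal lines of points at the left are genes at 0 in all samples of 1 line, whose fitted difference depends on the prior count.

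Among abundant genes that were much higher in the *tbx16* line, *slc1a2b*, which encodes a glutamate transporter of astroglia, reached 3259, 2670.0 and 2507 normalized counts in the *tbx16* line and 43.6, 36.5 and 43.8 in the *msgn1* line. No sample overlapped and wild type (range 25.5 to 54.9) stayed at the level of the *msgn1* line; the difference was 68.2-fold (log2 difference 6.09 ± 0.26 SE, edgeR adjusted p = 1.23e-06). *kif26aa*, a kinesin-family gene, stood at 3065, 1999 and 2473 in the *tbx16* line and at 8.07, 55.3 and 19.5 in the *msgn1* line. The *tbx16* line was far above both other groups (wild type 17.5 to 47.2), by 86.1-fold over the *msgn1* line (log2 difference 6.43 ± 0.52 SE, edgeR adjusted p = 2.48e-05), and the log2 difference was 7.44 without *msgn1*-line replicate 2. *HNRNPLL*, an RNA-binding splicing regulator, was 48.5-fold higher (log2 difference 5.60 ± 0.29 SE, edgeR adjusted p = 2.16e-06), with 495, 536 and 509 in the *tbx16* line and 6.45, 14.4 and 9.73 in the *msgn1* line. *grin2cb*, a subunit gene of NMDA glutamate receptors, had 904, 668 and 942 normalized counts in the *tbx16* line, 0, 0 and 9.73 in the *msgn1* line and 10.5 to 13.7 in wild type. *fam20cb*, which encodes a kinase of secreted proteins, had 558, 521 and 211 in the *tbx16* line and 0, 0 and 8.51 in the *msgn1* line. Both were called (edgeR adjusted p = 2.41e-05 and 1.79e-04), but with 2 of the 3 *msgn1*-line samples at 0 no fold is given. The remaining genes among the 10 with the largest differences were *gpr139*, *CABZ01049847.1*, *si:ch1073-15f12.3*, *zgc:91999* and *zgc:122979*, the last at 2500.5, 2872 and 2399.7 in the *tbx16* line and 53.2, 38.7 and 43.8 in the *msgn1* line.

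In the opposite direction, *kif26ba*, another kinesin-family gene, had 53.6, 50.1 and 38.2 normalized counts in the *tbx16* line and 1363, 1529 and 1913 in the *msgn1* line. It was 33.7-fold lower in the *tbx16* line with no overlap (log2 difference -5.08 ± 0.23 SE, edgeR adjusted p = 1.23e-06), and wild type (847 to 1259) lay nearer to the *msgn1* line. These 2 *kif26* genes were thus among the 10 largest differences of either direction, whereas *kif26ab* had a log2 difference of only -0.496. *proca1* had 119, 90.1 and 46.2 in the *tbx16* line, 6097, 5610.1 and 5279 in the *msgn1* line and 352 to 495 in wild type, so that wild type lay between the lines. The difference was 66.4-fold (log2 difference -6.05 ± 0.31 SE, edgeR adjusted p = 1.73e-06). *cdaa*, a cytidine deaminase gene, was also ordered the *tbx16* line, wild type, the *msgn1* line, at 12.3, 14.3 and 24.9 against 687, 962 and 522 with wild type at 257 to 292, a 42.1-fold difference (log2 difference -5.40 ± 0.32 SE, edgeR adjusted p = 4.81e-06). *zgc:56585* was 41.4-fold lower in the *tbx16* line (log2 difference -5.37 ± 0.85 SE, edgeR adjusted p = 0.00103), and its level also varied within groups, with 6325, 5269.6 and 1172 in the *msgn1* line and 5236, 6338 and 1889 in wild type. The low value was replicate 3 in both of those groups, and without *tbx16*-line replicate 1 the log2 difference was -6.54. *CT997819.5*, *si:ch211-108c17.2*, *si:ch211-245n8.4*, *si:dkey-85k7.7*, *dhrs3a* and *hnf4a* made up the rest of the 10; the last pair are described with their pathway and tissue.

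A further set of genes had no count at all in 1 line. There were 110 genes at 0 in all 3 *msgn1*-line samples with a mean of at least 20 counts in the *tbx16* line, and 25 with the opposite pattern. With a floor of 3 counts over the 3 libraries at 0, *gpr139*, an orphan G protein-coupled receptor gene, was at least 364-fold higher in the *tbx16* line, where it had 525, 518 and 635 raw counts against 0, 0 and 0 in the *msgn1* line and 3, 0 and 5 in wild type. The counts in the *tbx16* line were high in every sample. The others at 0 in the *msgn1* line included *cd44b* (a hyaluronan receptor, at least 116-fold higher), *sctr* (the secretin receptor, at least 86.0-fold), *tyrp1b* and *slc24a5* (pigment cell genes, at least 41.7-fold and 37.4-fold), *otog* (an inner ear matrix gene, at least 35.4-fold) and *eomesb* (a T-box gene, at least 34.1-fold). Of these 110 genes, 36 were also at 0 in all wild-type samples. The opposite pattern was led by *pou2f3*, a POU-domain transcription factor gene, with 137, 156 and 85 raw counts in the *msgn1* line, none in the *tbx16* line and 299, 181 and 216 in wild type, at least 202-fold lower in the *tbx16* line. Of the 25 genes of that kind 2 were at 0 in wild type. The *msgn1* line is the shallower line, and how far depth sets the larger number at 0 there was not tested.

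The first question was which tissues separate the lines, and tailbud progenitors had the largest share of called genes among the tissue lists. The study reports many members of that list as repressed by *tbx16* or *msgn1* in these same samples. The rank of the list is therefore not independent of that earlier result. In tailbuds pooled as tissue, fewer cells of a type and less RNA per cell cannot be told apart. Of 24 tailbud progenitor genes, 22 were tested and 19 called, 18 of them lower in the *tbx16* line and 1 higher, with a median log2 difference of -1.36. *tbxta*, the T-box gene Brachyury of tailbud and notochord, had 2882, 3911 and 4642 normalized counts in the *tbx16* line, 7764, 8021 and 7091 in the *msgn1* line and 11734 to 13481 in wild type. The groups did not overlap, both lines were below wild type, and the *tbx16* line was 2-fold below the *msgn1* line (edgeR adjusted p = 0.00103). *sox2*, the SoxB gene of neural and neuromesodermal progenitors, had 896, 639 and 834 in the *tbx16* line and 1938, 2371 and 1686 in the *msgn1* line. Its lowest *msgn1*-line sample was above its highest *tbx16*-line sample, a 2.53-fold difference (log2 difference -1.34 ± 0.17 SE, edgeR adjusted p = 2.68e-04). *nkx1.2la*, a homeobox gene of caudal progenitors, showed the largest difference of the list, with 58.8, 52.2 and 85.3 in the *tbx16* line against 1160.0, 1508 and 1326 in the *msgn1* line and 2009 to 2174 in wild type. That is 20.4-fold lower in the *tbx16* line (log2 difference -4.35 ± 0.20 SE, edgeR adjusted p = 1.23e-06). The caudal genes *cdx4* and *cdx1a* were 2.28-fold (log2 difference -1.19 ± 0.16 SE, edgeR adjusted p = 3.67e-04) and 7.99-fold (log2 difference -3.00 ± 0.34 SE, edgeR adjusted p = 1.71e-04) lower. *pou5f3*, the zebrafish Pou5f gene, was the 1 member called higher, 1.67-fold (log2 difference 0.74 ± 0.14 SE, edgeR adjusted p = 0.00241).

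**Figure D2:**
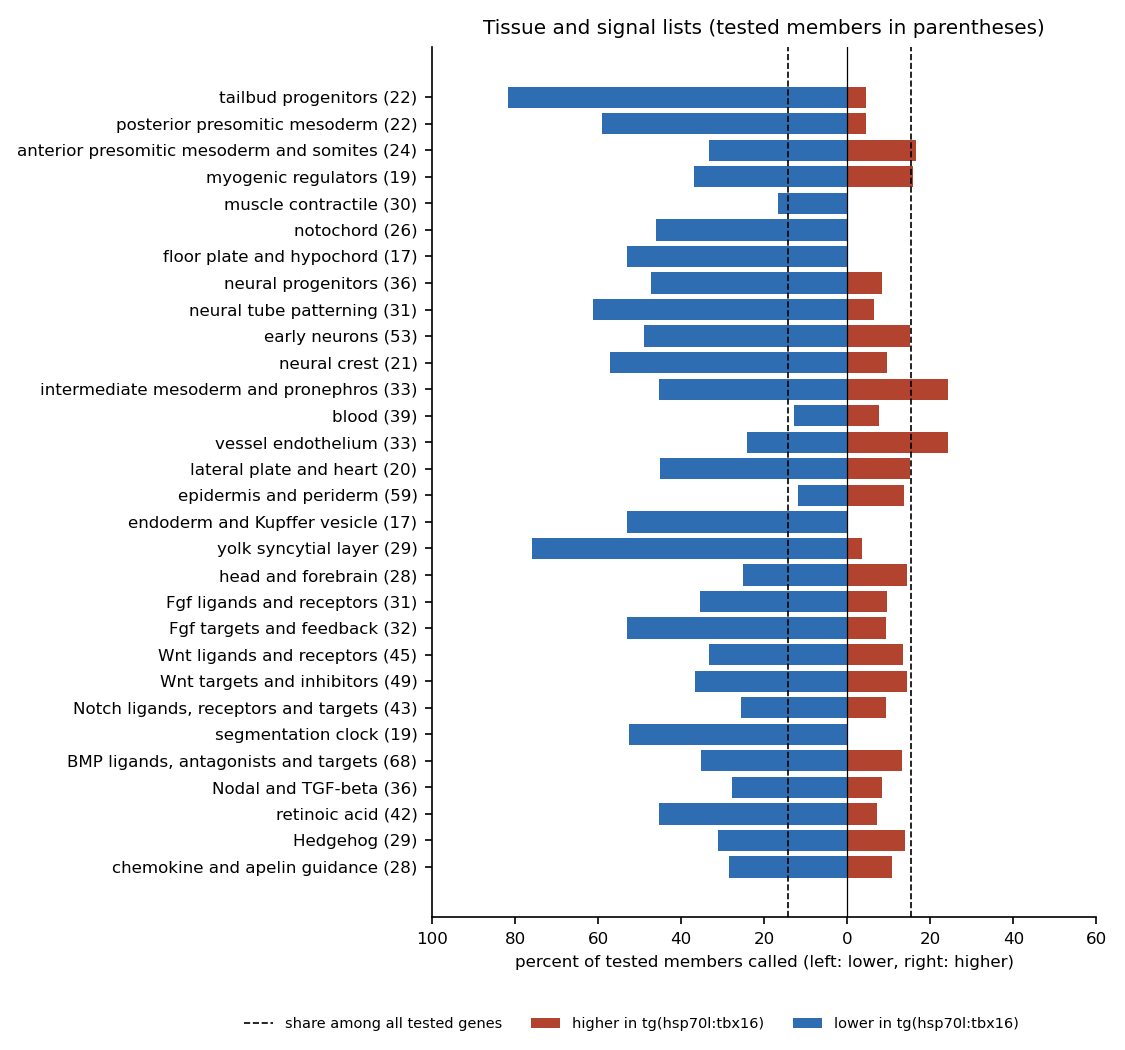
Percent of tested members of each tissue and signal list that were called higher (red, right) or lower (blue, left) in the *tbx16* line than in the *msgn1* line, with the number tested in parentheses. Dashed lines mark the shares among all tested genes, 15.4% higher and 14.3% lower; tailbud progenitors and yolk syncytial layer have the longest bars on the lower side.

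Genes of the posterior presomitic mesoderm and of the segmentation clock, the oscillating gene network that times somite formation, were nearly all lower in the *tbx16* line where called. All 22 posterior presomitic mesoderm genes were tested, and 13 were called lower and 1 higher, the latter being *tbx16* itself, with a median log2 difference of -0.83. The posterior presomitic mesoderm and clock lists share members, among them *msgn1*, *her1* and *her11*, all called lower. Their counts are therefore not separate results. Because *msgn1* is in both of these lists, each count also includes a transgene. *tbx6*, a T-box gene of presomitic mesoderm, had 8296, 8323 and 18199 normalized counts in the *tbx16* line, 48302, 42135 and 52483 in the *msgn1* line and 34834 to 41076 in wild type. *tbx16*-line replicate 3 was the highest of its line and still below all others; the lines differed 4.105-fold (log2 difference -2.04 ± 0.28 SE, edgeR adjusted p = 4.93e-04). Of 19 clock genes tested, 10 were lower in the *tbx16* line and none was called higher. The hairy-related clock gene *her11* was 5.14-fold lower (log2 difference -2.36 ± 0.21 SE, edgeR adjusted p = 3.84e-05). *lfng*, a glycosyltransferase gene that modifies Notch receptors, was 3.83-fold lower (log2 difference -1.94 ± 0.15 SE, edgeR adjusted p = 1.70e-05). *her1* was called (log2 difference -0.65 ± 0.21 SE, edgeR adjusted p = 0.0343), but the call was lost when *tbx16*-line replicate 1, *tbx16*-line replicate 2, *msgn1*-line replicate 1 or *msgn1*-line replicate 2 was left out (edgeR adjusted p = 0.13, 0.099, 0.0529 and 0.111), and with library size alone (log2 difference -0.34, edgeR adjusted p = 0.257). *her7*, its partner in the clock, passed the test at less than 1.5-fold (log2 difference -0.57 ± 0.17 SE, edgeR adjusted p = 0.0227) but not without *tbx16*-line replicate 1, *tbx16*-line replicate 3 or *msgn1*-line replicate 2 (edgeR adjusted p = 0.0911, 0.0724 and 0.0596) or with library size alone (log2 difference -0.26, edgeR adjusted p = 0.334), and the Notch ligand gene *dlc* was not called (log2 difference 0.01 ± 0.25 SE, edgeR adjusted p = 0.988). Summed over the list, clock genes had 135260, 144952 and 206350 normalized counts in the *tbx16* line, where replicate 3 was highest, and 291942, 294813 and 303046 in the *msgn1* line, with wild type at 230504 to 250572. These sums include *msgn1*, and so transgene counts in the *msgn1* line. The excess of that line over wild type therefore cannot be read as a rise of the other clock genes.

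Anterior presomitic mesoderm and somite genes were split. Of 24 tested, 8 were lower and 4 higher in the *tbx16* line, with a median of -0.24, 0.07 with library size alone. The *mesp* genes, which mark the next somite boundary, went opposite ways. *mespaa* had 93.9, 149 and 257 normalized counts in the *tbx16* line and 352, 413 and 366 in the *msgn1* line, 2.27-fold lower in the *tbx16* line (log2 difference -1.18 ± 0.30 SE, edgeR adjusted p = 0.0113). *mespba* had 528, 997 and 1724 in the *tbx16* line, 366, 301 and 371 in the *msgn1* line and 390.4 to 443 in wild type. All *tbx16*-line samples lay above the others, by 3.13-fold over the *msgn1* line (log2 difference 1.65 ± 0.34 SE, edgeR adjusted p = 0.0044). *tbx18*, a T-box gene of anterior half-somites, was 3.91-fold higher (log2 difference 1.97 ± 0.26 SE, edgeR adjusted p = 3.55e-04), and *cdh11*, a cadherin gene, 2.699-fold lower (log2 difference -1.43 ± 0.14 SE, edgeR adjusted p = 7.49e-05). *ripply1*, a repressor partner of T-box factors in the anterior presomitic mesoderm, was 2.08-fold lower (log2 difference -1.06 ± 0.26 SE, edgeR adjusted p = 0.00955), whereas *tcf15*, a somite helix-loop-helix gene, was not called (log2 difference -0.27 ± 0.25 SE, edgeR adjusted p = 0.411) until *tbx16*-line replicate 3 was left out (log2 difference -0.62, edgeR adjusted p = 0.0472).

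Myogenic regulators were called in both directions. Contractile genes were near the background share on the lower side and below it on the higher side. The determination genes *myf5*, *myod1* and *myog* were not called, with log2 differences of -0.37, 0.11 and 0.46. Without *tbx16*-line replicate 3, *myf5* passed the test (log2 difference -0.65, edgeR adjusted p = 0.0284), and without *msgn1*-line replicate 2, *myog* did in the other direction (0.65, edgeR adjusted p = 0.0311), as it did with library size alone (0.78, edgeR adjusted p = 0.0224). Of 19 myogenic regulators 7 were lower and 3 higher in the *tbx16* line (52.6% called, against 29.7% of all genes). Their median log2 difference was -0.32, and 0.02 with library size alone. The 7 lower genes include the Fgf ligand gene *fgf8a*, which is also in the tailbud progenitor list. Lower were *pax7b* of muscle and neural crest precursors, 5.203-fold (log2 difference -2.38 ± 0.37 SE, edgeR adjusted p = 9.70e-04), and the homeobox gene *six4b*, 4.54-fold (log2 difference -2.18 ± 0.34 SE, edgeR adjusted p = 9.94e-04). Higher were *eya2*, a transcriptional cofactor gene, 3.003-fold (log2 difference 1.59 ± 0.23 SE, edgeR adjusted p = 6.33e-04), and the Mef2 genes *mef2ca* and *mef2cb*, 2.73-fold (log2 difference 1.45 ± 0.19 SE, edgeR adjusted p = 3.53e-04) and 2.21-fold (log2 difference 1.14 ± 0.18 SE, edgeR adjusted p = 9.86e-04). Of 30 contractile genes 5 were lower (16.7%, against 14.3% of all genes) and none higher (against 15.4% of all genes). There were 3 lower without *tbx16*-line replicate 1, and 2 lower and 1 higher with library size alone. The median log2 difference of the contractile genes was -0.40, and -0.06 with library size alone. Summed over the list, they had 86028, 95606 and 105120 normalized counts in the *tbx16* line and 190207, 159573 and 165671 in the *msgn1* line. The lines did not overlap, and wild type had 121556 to 150991. *acta1a*, a skeletal actin gene, was 3.58-fold lower (log2 difference -1.84 ± 0.25 SE, edgeR adjusted p = 4.62e-04), and *tnnc2*, fast troponin C, was called (log2 difference -0.80 ± 0.23 SE, edgeR adjusted p = 0.0202) only with *tbx16*-line replicate 1 and *msgn1*-line replicate 1 both present (edgeR adjusted p = 0.0775 and 0.077 without the first and the last), and not with library size alone (log2 difference -0.44, edgeR adjusted p = 0.0847).

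The axial midline genes that were called were all lower in the *tbx16* line with TMM scaling. Of 26 notochord genes 12 were lower and none higher (median -0.52; 2 higher without *msgn1*-line replicate 2; 11 and 3 with library size alone), and of 17 floor plate and hypochord genes 9 were lower and none higher (median -0.68; 7 and 1 with library size alone). The lists share 4 called genes, *shha*, *shhb*, *foxa2* and *col2a1a*. The 12 lower notochord genes also include *tbxta* and *tbxtb*, which are counted in the tailbud progenitor list as well. *noto*, a homeobox gene required for notochord fate, had 120.3, 151 and 113 normalized counts in the *tbx16* line, 1121, 1008 and 934 in the *msgn1* line and 1534, 1855 and 1936 in wild type. The 3 groups did not overlap, and the lines differed 7.95-fold (log2 difference -2.99 ± 0.16 SE, edgeR adjusted p = 2.52e-06). The Hedgehog ligand genes *shha* and *shhb* were 3.98-fold (log2 difference -1.99 ± 0.21 SE, edgeR adjusted p = 1.04e-04) and 7.89-fold (log2 difference -2.98 ± 0.22 SE, edgeR adjusted p = 1.53e-05) lower. *col8a1a*, a collagen gene of differentiated notochord, was not called (edgeR adjusted p = 0.998), and *col2a1a* was 1.72-fold lower (log2 difference -0.78 ± 0.18 SE, edgeR adjusted p = 0.00748) but not called with library size alone (log2 difference -0.46, edgeR adjusted p = 0.105). For the forkhead genes of motile cilia, *foxj1b* was 10.9-fold lower (log2 difference -3.45 ± 0.24 SE, edgeR adjusted p = 1.01e-05), whereas *foxj1a* was not called (log2 difference 0.21 ± 0.14 SE, edgeR adjusted p = 0.264), with a log2 difference of 0.54 under library size alone.

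Called neural genes were lower more often than higher in the *tbx16* line, and a few were far higher. Among neural progenitor genes 17 of 36 were lower and 3 higher (10 and 6 with library size alone). Among neural tube patterning genes 19 of 31 were lower and 2 higher (median -1.48; 4 higher without *msgn1*-line replicate 2; 16 and 4 with library size alone), and among early neuron genes 26 of 53 were lower and 8 higher (median -1.04). *elavl3*, an RNA-binding protein gene of newborn neurons, had 617, 331 and 636 normalized counts in the *tbx16* line, 2814, 4849.7 and 3269 in the *msgn1* line and 3616 to 4896 in wild type. The *tbx16* line lay below both, 6.91-fold under the *msgn1* line (log2 difference -2.79 ± 0.28 SE, edgeR adjusted p = 8.65e-05). *isl1*, a LIM homeobox gene of motor and sensory neurons, was 8.16-fold lower (log2 difference -3.03 ± 0.18 SE, edgeR adjusted p = 5.03e-06), and *ascl1a*, a proneural gene, 17.3-fold lower (log2 difference -4.12 ± 0.37 SE, edgeR adjusted p = 4.22e-05). *olig2*, of motor neuron progenitors, was 2.79-fold lower (log2 difference -1.48 ± 0.21 SE, edgeR adjusted p = 6.05e-04). *lbx1b*, of dorsal interneurons, had 45, 56 and 22 raw counts in the *msgn1* line and none in the *tbx16* line, at least 65.6-fold lower. *ebf3a*, a neuronal differentiation gene, showed the reverse, with 918, 1009.7 and 1482 in the *tbx16* line, 72.6, 87.3 and 46.2 in the *msgn1* line and 45.6 to 104 in wild type. It was 16.5-fold higher in the *tbx16* line (log2 difference 4.04 ± 0.35 SE, edgeR adjusted p = 3.34e-05). The sensory neuron gene *pou4f2* was 11.96-fold higher (log2 difference 3.58 ± 0.67 SE, edgeR adjusted p = 0.0026), with a log2 difference of 5.08 without *msgn1*-line replicate 2, and the LIM homeobox gene *lhx5* 6.04-fold (log2 difference 2.60 ± 0.37 SE, edgeR adjusted p = 5.94e-04). *gfap*, an intermediate filament gene of glia, was 5.94-fold higher (log2 difference 2.57 ± 0.18 SE, edgeR adjusted p = 1.10e-05). *neurog1*, a proneural gene, and the SoxB gene *sox3* were not called (log2 differences -0.20 ± 0.21 and 0.23 ± 0.19 SE), and under library size alone *sox3* passed the test in the same direction.

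Among 21 neural crest genes 12 were lower and 2 higher in the *tbx16* line. *foxd3*, an early crest and tailbud gene, had 151, 192 and 156 normalized counts in the *tbx16* line and 799, 701 and 554 in the *msgn1* line. It was 4.11-fold lower with no overlap (log2 difference -2.04 ± 0.17 SE, edgeR adjusted p = 2.92e-05). *crestin*, a crest-specific transcript of zebrafish, was 4.69-fold lower (log2 difference -2.23 ± 0.50 SE, edgeR adjusted p = 0.00656), with a log2 difference of -1.63 without *msgn1*-line replicate 3. *snai2* and *sox10* were not called (log2 differences 0.10 ± 0.12 and -0.30 ± 0.68 SE), though *snai2* passed the test under 1.5-fold with library size alone (log2 difference 0.44, edgeR adjusted p = 0.00662). *snai1b*, a repressor of epithelial genes, was 1.56-fold higher (log2 difference 0.64 ± 0.10 SE, edgeR adjusted p = 0.00128).

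Vessel and blood genes were called in both directions. Of the vessel genes 48.5% were called and of the blood genes 20.5%, against 29.7% of all genes. The lists share *tal1*, *lmo2* and *gata2a*, and of these *tal1* and *lmo2* were called higher. Of 33 vessel genes 8 were higher and 8 lower in the *tbx16* line (11 and 4 with library size alone), and of 39 blood genes 3 and 5 (5 and 3 with library size alone, 3 lower without *msgn1*-line replicate 1). *npas4l*, the helix-loop-helix gene *cloche* at the top of endothelial and blood specification, had 8614, 7105 and 11722 normalized counts in the *tbx16* line, 1271, 1240.0 and 1003 in the *msgn1* line and 1242 to 1684 in wild type. Every *tbx16*-line sample was above all others, by 7.81-fold over the *msgn1* line (log2 difference 2.97 ± 0.20 SE, edgeR adjusted p = 9.79e-06). *etv2*, an Ets gene that acts below *npas4l*, had 7874, 10362 and 13168 in the *tbx16* line and 3901, 4065 and 1979 in the *msgn1* line, where replicate 3 was lowest. The lines did not overlap and differed 3.16-fold (log2 difference 1.66 ± 0.27 SE, edgeR adjusted p = 0.00123). *tal1* and *lmo2*, which encode partners in a hematopoietic transcription complex, were 2.29-fold (log2 difference 1.19 ± 0.17 SE, edgeR adjusted p = 5.86e-04) and 2.103-fold (log2 difference 1.07 ± 0.19 SE, edgeR adjusted p = 0.00199) higher, and the endothelial claudin gene *cldn5b* was 8.23-fold higher (log2 difference 3.04 ± 0.19 SE, edgeR adjusted p = 5.03e-06).

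Other endothelial genes went the other way. *kdrl*, a VEGF receptor gene, had 193, 189 and 219 normalized counts in the *tbx16* line, 684, 742 and 847 in the *msgn1* line and 847 to 1029 in wild type. The *tbx16* line was 3.79-fold below the *msgn1* line (log2 difference -1.92 ± 0.15 SE, edgeR adjusted p = 1.72e-05). *tie1*, an endothelial receptor kinase gene, had 99.2, 69.4 and 48.9 in the *tbx16* line and 415, 367 and 393 in the *msgn1* line, with wild type between them at 135 to 224, a 5.39-fold difference (log2 difference -2.43 ± 0.28 SE, edgeR adjusted p = 2.00e-04). *esama*, an endothelial junction gene, was 4.44-fold lower (log2 difference -2.15 ± 0.32 SE, edgeR adjusted p = 8.04e-04). *cdh5*, VE-cadherin, was called at 1.54-fold lower (log2 difference -0.62 ± 0.18 SE, edgeR adjusted p = 0.0223) but not without *tbx16*-line replicate 2, *tbx16*-line replicate 3 or *msgn1*-line replicate 2 (edgeR adjusted p = 0.0828, 0.0628 and 0.0645), with only the 6 samples of the lines in the fit (0.0518) or with library size alone (log2 difference -0.30, edgeR adjusted p = 0.296). In blood, *gata1a*, the master gene of the red cell lineage, was not called (log2 difference -0.15 ± 0.23 SE, edgeR adjusted p = 0.642), and *gfi1b*, a blood repressor gene, was 5.45-fold lower (log2 difference -2.45 ± 0.25 SE, edgeR adjusted p = 9.75e-05).

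Of 33 pronephros genes, the embryonic kidney list, 15 were lower and 8 higher in the *tbx16* line. *osr2*, a zinc finger gene of intermediate mesoderm, had 1238, 1491 and 1166 normalized counts in the *tbx16* line, 87.1, 63.00 and 57.1 in the *msgn1* line and 73.2 to 78.3 in wild type. It was 18.9-fold higher with no overlap (log2 difference 4.24 ± 0.20 SE, edgeR adjusted p = 1.31e-06). *pax2a*, needed for pronephric tubule fate, had 425, 435 and 754 in the *tbx16* line and 1688, 1634 and 1788 in the *msgn1* line. It was 3.17-fold lower in the *tbx16* line (log2 difference -1.66 ± 0.20 SE, edgeR adjusted p = 2.34e-04). *hnf1bb* and *ret*, of tubule and duct, were 4.49-fold (log2 difference -2.17 ± 0.39 SE, edgeR adjusted p = 0.00218) and 5.33-fold (log2 difference -2.41 ± 0.17 SE, edgeR adjusted p = 1.11e-05) lower. *pax8* was called (log2 difference -0.80 ± 0.25 SE, edgeR adjusted p = 0.0288), but not without *tbx16*-line replicate 1, *tbx16*-line replicate 2, *msgn1*-line replicate 1 or *msgn1*-line replicate 3 (edgeR adjusted p = 0.0967, 0.107, 0.0798 and 0.0681), with only the 6 samples of the lines in the fit (0.0507) or with library size alone (log2 difference -0.47, edgeR adjusted p = 0.134). In the lateral plate and heart list 9 of 20 genes were lower and 3 higher. *hand2*, a lateral plate and heart gene, had 107, 90.8 and 174 in the *tbx16* line and 1584, 1745 and 1329 in the *msgn1* line, 12.5-fold lower (log2 difference -3.65 ± 0.23 SE, edgeR adjusted p = 6.64e-06). *gata4* was not called (log2 difference -0.50 ± 0.56 SE, edgeR adjusted p = 0.514) except without *tbx16*-line replicate 1 (log2 difference -1.63, edgeR adjusted p = 0.0113).

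Yolk syncytial layer genes were mostly lower in the *tbx16* line, and called endoderm genes were all lower. Of 17 endoderm and Kupffer vesicle genes 9 were lower and none higher, while the defining genes *sox17* and *foxa3* were not called (log2 differences 0.26 ± 0.47 and -0.01 ± 0.20 SE). The 9 include genes counted in other lists as well: *hnf4a* with yolk, *foxa2* with the axial midline and *cxcr4a* with guidance genes. The endoderm count is therefore not separate from those lists. Of 29 yolk syncytial layer genes 22 were lower and 1 higher (median -2.63; 15 and 3 with library size alone). *hnf4a*, a nuclear receptor gene of yolk, gut and liver, had 11.4, 4.29 and 0 normalized counts in the *tbx16* line, 221, 166 and 207 in the *msgn1* line and 116 to 192 in wild type. It was 37.1-fold lower (log2 difference -5.21 ± 0.64 SE, edgeR adjusted p = 2.68e-04), and *tbx16*-line replicate 1 was the highest of its line; without it the log2 difference was -6.32. *apobb.1*, an apolipoprotein B gene of yolk lipid export, had 5407, 374 and 758 in the *tbx16* line and 18914, 14948 and 13922 in the *msgn1* line. *tbx16*-line replicate 1 was again high; the log2 difference was -2.87 ± 0.78 SE (edgeR adjusted p = 0.0157) and -4.81 without that sample. The number of yolk genes called lower was 11 without *tbx16*-line replicate 3, 14 without *msgn1*-line replicate 1 and 24 without *tbx16*-line replicate 1. Summed over the list, yolk syncytial layer genes had 152002, 128618 and 138317 normalized counts in the *tbx16* line and 337253, 236635 and 286165 in the *msgn1* line, with wild type at 237666 to 259218. How much of this follows from yolk carried along at dissection was not tested.

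Surface markers were close to the background share and head markers above it on the lower side. Of 59 epidermis and periderm genes 8 were higher (13.6%) and 7 lower (11.9%) in the *tbx16* line (12 and 4 genes with library size alone). The keratin genes *krt4* and *krt5* and the epidermal gene *tp63* were not called (log2 differences -0.11 ± 0.50, -0.09 ± 0.64 and -0.29 ± 0.15 SE). Summed over the list the samples ranged over 362218 to 556470 normalized counts in the *tbx16* line and 269206 to 715003 in the *msgn1* line, so the lines overlapped. Of 28 head and forebrain genes 7 were lower and 4 higher (2 and 4 with library size alone; 4 lower without *msgn1*-line replicate 1 or *tbx16*-line replicate 2). *mafba*, a transcription factor gene of hindbrain and myeloid cells, was the exception in size, with 3327, 3639.6 and 2775 in the *tbx16* line, 190.4, 266 and 175 in the *msgn1* line and 323 to 436 in wild type, 15.4-fold higher (log2 difference 3.94 ± 0.20 SE, edgeR adjusted p = 1.77e-06).

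The second question was which signals separate the lines, and retinoic acid handling is given first. Retinoic acid is made from retinol by a retinol dehydrogenase and then a retinaldehyde dehydrogenase, is carried by cellular binding proteins, acts through RAR and RXR receptors and is broken down by Cyp26 enzymes. Of 42 pathway genes tested 19 were lower and 3 higher in the *tbx16* line, with a median of -0.85, and 1 was higher without *msgn1*-line replicate 1. With library size alone 12 were lower and 6 higher. For synthesis, *rdh10a*, the retinol dehydrogenase, had 808, 1191 and 2361 normalized counts in the *tbx16* line, 9158, 7195 and 8297 in the *msgn1* line and 4191, 3654 and 4063 in wild type. The groups did not overlap, wild type lay between the lines, and the lines differed 5.66-fold (log2 difference -2.50 ± 0.32 SE, edgeR adjusted p = 3.26e-04). *aldh1a2*, the main retinaldehyde dehydrogenase of the trunk, went the other way, with 4936, 7492 and 11669.5 in the *tbx16* line and 3733, 4056 and 3950.2 in the *msgn1* line. It was 2.05-fold higher in the *tbx16* line (log2 difference 1.04 ± 0.26 SE, edgeR adjusted p = 0.0115), above wild type (2601 to 3796) in every sample. *dhrs3a*, a retinaldehyde reductase that returns the substrate to retinol, had 11.4, 13.6 and 23.1 in the *tbx16* line, 1146, 1099 and 1012 in the *msgn1* line and 162, 115 and 175 in wild type. The *tbx16* line was under and the *msgn1* line above wild type in every sample, a 67.5-fold difference between the lines (log2 difference -6.08 ± 0.29 SE, edgeR adjusted p = 1.31e-06).

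The binding protein gene *crabp2b* had 1042, 1019.7 and 1151 normalized counts in the *tbx16* line, 27069.8, 20604 and 22359 in the *msgn1* line and 11434, 8979 and 7547 in wild type. This was the same order of groups with a 21.8-fold difference (log2 difference -4.45 ± 0.18 SE, edgeR adjusted p = 1.23e-06), and *crabp1b* was 8.31-fold lower in the *tbx16* line (log2 difference -3.05 ± 0.31 SE, edgeR adjusted p = 9.43e-05). For breakdown, *cyp26a1*, the tailbud Cyp26 gene, was not called, with 4161, 4758 and 4731 in the *tbx16* line and 4377, 4109 and 3765 in the *msgn1* line (log2 difference 0.16 ± 0.10 SE, edgeR adjusted p = 0.244); with library size alone the log2 difference was 0.49 (edgeR adjusted p = 0.00606). *cyp26c1* and *aldh1a3* were called higher in the *tbx16* line, with log2 differences of 3.82 ± 1.22 and 2.52 ± 0.84 SE (edgeR adjusted p = 0.031 and 0.0379), and each lost its call without *tbx16*-line replicate 1 (edgeR adjusted p = 0.111 and 0.125), as also without *msgn1*-line replicate 1 (edgeR adjusted p = 0.0832 and 0.114) and *msgn1*-line replicate 2 (edgeR adjusted p = 0.0758 and 0.0973). *cyp26c1* lost it also without *tbx16*-line replicate 2 (edgeR adjusted p = 0.0582) and *aldh1a3* without *tbx16*-line replicate 3 (edgeR adjusted p = 0.0629). Without *msgn1*-line replicate 3 the log2 difference of *cyp26c1* was 8.47, so its size depends on that sample. The plot of named genes by sample shows the same order of the groups for *crabp2b*, *dhrs3a* and *rdh10a*.

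**Figure D3:**
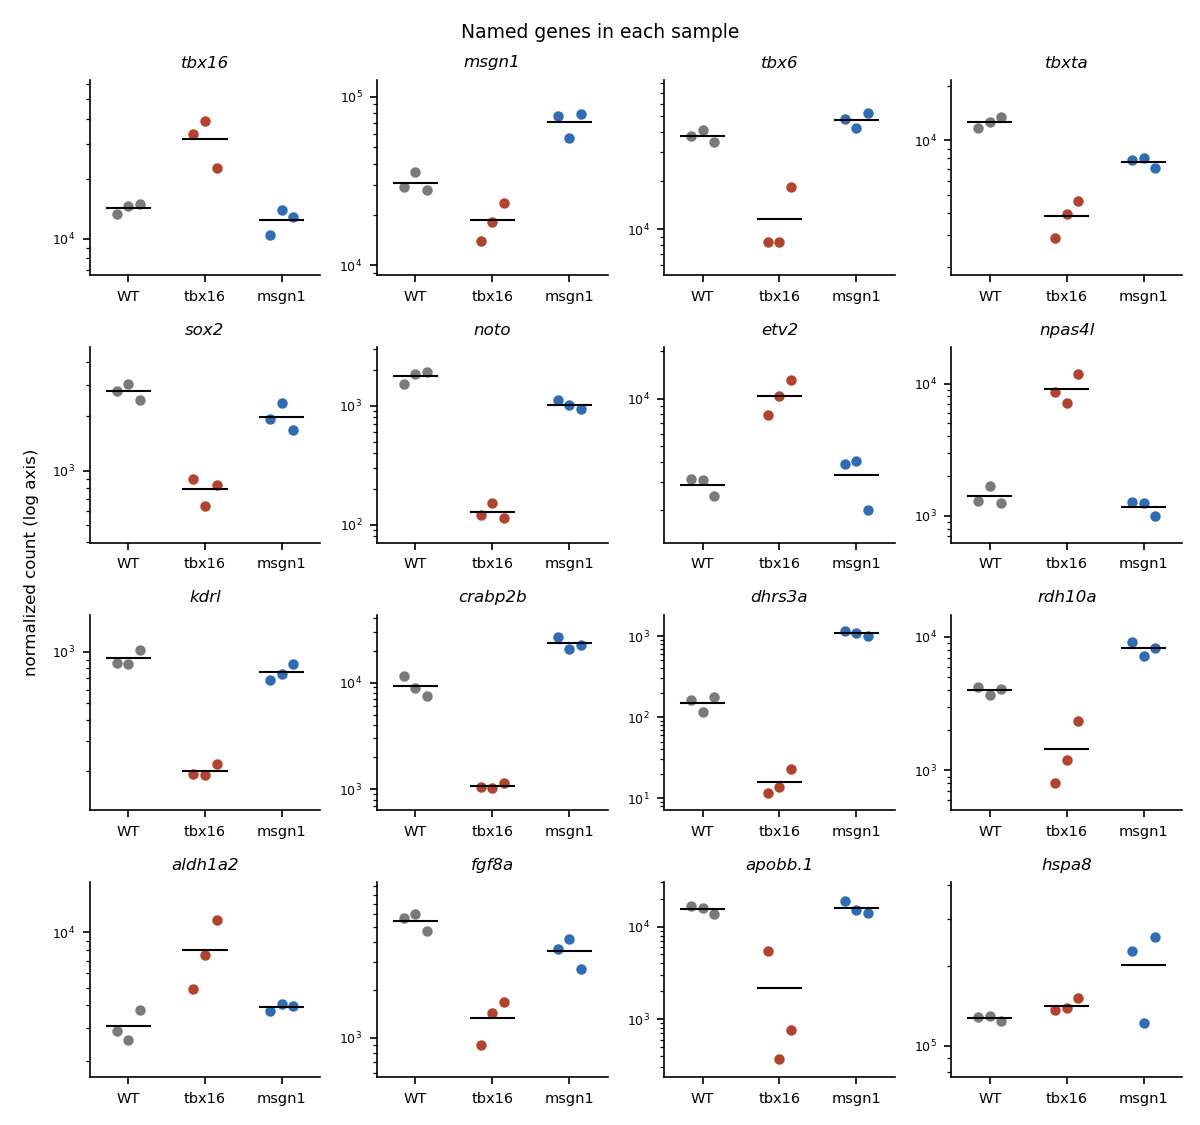
Normalized counts (log axis) of 16 named genes in each sample of wild type (grey), the *tbx16* line (red) and the *msgn1* line (blue); points are samples in replicate order and bars are means of 3. *crabp2b*, *dhrs3a* and *rdh10a* have wild type between the lines, *etv2*, *npas4l* and *aldh1a2* are highest in the *tbx16* line, and *apobb.1* is spread widely within it.

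Called Fgf genes were lower more often than higher in the *tbx16* line. Of 31 ligand and receptor genes 11 were lower and 3 higher, and of 32 targets 17 were lower and 3 higher (11 and 6 with library size alone). *fgf8a*, the main tailbud ligand, had 899.9, 1435 and 1691 normalized counts in the *tbx16* line, 3633, 4184 and 2708 in the *msgn1* line and 4743 to 5992 in wild type. The *tbx16* line lay below the *msgn1* line, and both below wild type, with a 2.61-fold difference between the lines (log2 difference -1.39 ± 0.23 SE, edgeR adjusted p = 0.00135). *fgf3* and *fgf4* were 5.66-fold (log2 difference -2.50 ± 0.16 SE, edgeR adjusted p = 5.91e-06) and 10.7-fold (log2 difference -3.42 ± 0.23 SE, edgeR adjusted p = 8.12e-06) lower in the *tbx16* line, whereas *fgf24* was not called (log2 difference -0.41 ± 0.28 SE, edgeR adjusted p = 0.262). The receptor gene *fgfr3* was 5.56-fold higher (log2 difference 2.47 ± 0.27 SE, edgeR adjusted p = 1.33e-04). Among targets, *dusp6* and *spry4*, both feedback inhibitors, were 1.99-fold (log2 difference -0.99 ± 0.14 SE, edgeR adjusted p = 6.59e-04) and 1.67-fold (log2 difference -0.74 ± 0.13 SE, edgeR adjusted p = 0.0022) lower, and *egr1*, an immediate early gene, 8.86-fold (log2 difference -3.15 ± 0.26 SE, edgeR adjusted p = 2.61e-05). With library size alone *spry4* was not called (log2 difference -0.42, edgeR adjusted p = 0.0597). The Ets target *etv4* was not called (log2 difference -0.45 ± 0.16 SE, edgeR adjusted p = 0.0511), but was without *msgn1*-line replicate 2 (edgeR adjusted p = 0.00247), and *etv1* was 4.75-fold higher (log2 difference 2.25 ± 0.46 SE, edgeR adjusted p = 0.00417).

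Among Wnt genes the tailbud ligands *wnt8a* and *wnt3a* were called lower in the *tbx16* line, while the target genes *axin2* and *lef1* were not called. Of 45 ligands and receptors 15 were lower and 6 higher (12 and 11 with library size alone), and of 49 targets and inhibitors 18 and 7 (15 and 11 with library size alone). These ligands were 9.22-fold (log2 difference -3.20 ± 0.45 SE, edgeR adjusted p = 5.30e-04) and 2.14-fold (log2 difference -1.10 ± 0.27 SE, edgeR adjusted p = 0.011) lower, and *wnt3a* was not called with library size alone (log2 difference -0.77, edgeR adjusted p = 0.0578) or with only the 6 samples of the lines in the fit (0.0576). *rspo3*, a secreted enhancer of Wnt signalling, had 945, 1219.9 and 1099 normalized counts in the *tbx16* line, 340.4, 201 and 218 in the *msgn1* line and 95.3 to 179.7 in wild type. It was 4.31-fold higher in the *tbx16* line with no overlap (log2 difference 2.11 ± 0.26 SE, edgeR adjusted p = 2.93e-04). *notum1b*, a secreted Wnt deacylase, had 3364, 3769.8 and 4028 in the *tbx16* line and 352, 438 and 285 in the *msgn1* line, 10.4-fold higher (log2 difference 3.38 ± 0.17 SE, edgeR adjusted p = 1.72e-06). The log2 differences of *axin2* and *lef1* were 0.29 ± 0.13 and 0.03 ± 0.13 SE; *axin2* passed the test, higher in the *tbx16* line, without *msgn1*-line replicate 2 and with library size alone (edgeR adjusted p = 0.0101 and 0.0218). *sp5l*, an Sp-family Wnt target, was 4.28-fold lower (log2 difference -2.097 ± 0.23 SE, edgeR adjusted p = 1.29e-04).

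In the Notch list 11 of 43 genes were lower and 4 higher in the *tbx16* line (7 and 6 with library size alone, 2 higher without *msgn1*-line replicate 1). *notch3* was 4.07-fold lower (log2 difference -2.02 ± 0.25 SE, edgeR adjusted p = 2.82e-04) and *notch1a* was not called (log2 difference -0.14 ± 0.20 SE, edgeR adjusted p = 0.6). *numb*, an intracellular Notch inhibitor, was 2.92-fold higher (log2 difference 1.55 ± 0.18 SE, edgeR adjusted p = 2.00e-04). *her4.1*, a neural Notch target, was lower (log2 difference -1.30 ± 0.37 SE, edgeR adjusted p = 0.0202) but not without *tbx16*-line replicate 1, *tbx16*-line replicate 2 or *msgn1*-line replicate 2 (edgeR adjusted p = 0.0546, 0.0752 and 0.0656) or with library size alone (0.0642).

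BMP genes were split, 24 lower and 9 higher of 68, which turned to 15 lower and 16 higher with library size alone. *szl*, sizzled, a secreted BMP feedback antagonist, had 339.8, 352 and 731 normalized counts in the *tbx16* line, 7067, 5696 and 7177 in the *msgn1* line and 7551 to 10369 in wild type. It was 14.04-fold lower with no overlap (log2 difference -3.81 ± 0.30 SE, edgeR adjusted p = 1.99e-05). The ligand *bmp4* had 1727, 1722 and 1785 in the *tbx16* line and 657, 1081 and 821 in the *msgn1* line, with wild type at 1431 to 1781, overlapping the *tbx16* line. It was 2.04-fold higher in the *tbx16* line (log2 difference 1.03 ± 0.17 SE, edgeR adjusted p = 0.00127), whereas the ligand *bmp2a* was 7.53-fold lower (log2 difference -2.91 ± 0.14 SE, edgeR adjusted p = 1.31e-06). The direct target *id3* was not called (log2 difference -0.27 ± 0.16 SE, edgeR adjusted p = 0.207); without *tbx16*-line replicate 3 it passed the test under 1.5-fold (log2 difference -0.46, edgeR adjusted p = 0.048), and *id4* was 4.47-fold higher (log2 difference 2.16 ± 0.26 SE, edgeR adjusted p = 2.15e-04). *bmpr1bb*, a type I receptor gene, was 5.698-fold higher (log2 difference 2.51 ± 0.18 SE, edgeR adjusted p = 1.21e-05).

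Nodal and TGF-beta genes were lower in 10 and higher in 3 of 36 (9 and 5 with library size alone). *lft1*, a Nodal inhibitor, was 6.07-fold lower (log2 difference -2.60 ± 0.28 SE, edgeR adjusted p = 1.36e-04), and *tgfb3*, a ligand, 3.46-fold higher (log2 difference 1.79 ± 0.14 SE, edgeR adjusted p = 2.17e-05). In the Hedgehog list 9 of 29 genes were lower and 4 higher (8 and 9 with library size alone). Although the ligand genes *shha* and *shhb* were lower, *gli1*, a transcriptional target and effector, had 7033, 4468 and 5454 normalized counts in the *tbx16* line and 1967, 2772 and 2602 in the *msgn1* line. It was 2.31-fold higher in the *tbx16* line with no overlap (log2 difference 1.21 ± 0.18 SE, edgeR adjusted p = 7.80e-04). *scube1*, whose product belongs to a family that aids Hedgehog release, had 1615, 1445 and 1350.0 in the *tbx16* line, 35.5, 84.00 and 96.1 in the *msgn1* line and 91.2 to 168 in wild type, 20.1-fold higher (log2 difference 4.33 ± 0.34 SE, edgeR adjusted p = 2.21e-05). The receptor gene *ptch1*, a transcriptional target of the pathway, did not pass the test (log2 difference 0.58 ± 0.23 SE, edgeR adjusted p = 0.0653), but did with library size alone (edgeR adjusted p = 0.0248).

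Among chemokine, apelin and related guidance genes 8 of 28 were lower and 3 higher (5 and 4 with library size alone). The chemokine receptor gene *cxcr4a* was 1.94-fold lower (log2 difference -0.95 ± 0.14 SE, edgeR adjusted p = 6.76e-04), its ligand gene *cxcl12a* was not called (log2 difference -0.41 ± 0.27 SE, edgeR adjusted p = 0.246) except without *tbx16*-line replicate 3 (edgeR adjusted p = 0.0398), and the apelin receptor ligand gene *apela* was not called (log2 difference 0.05 ± 0.17 SE, edgeR adjusted p = 0.834). *vegfab*, an endothelial growth factor gene, was 3.01-fold higher (log2 difference 1.59 ± 0.25 SE, edgeR adjusted p = 9.91e-04).

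The third question was which functions and gene families separate the lines. Hox genes, which set position along the body axis, were mostly lower in the *tbx16* line in each range of paralog groups. For groups 1 to 4, 8 of 12 were lower (5 with library size alone), for groups 5 to 8, 10 of 12, and for groups 9 to 13, 14 of 22, with medians of -0.97, -1.03 and -1.38. *hoxa13b*, of the tail end of the axis, had 49.2, 75.1 and 62.2 normalized counts in the *tbx16* line, 286, 397 and 319.8 in the *msgn1* line and 519 to 678 in wild type. It was 5.36-fold lower (log2 difference -2.42 ± 0.22 SE, edgeR adjusted p = 4.36e-05), and both lines lay below wild type. *hoxd12a* was 5.502-fold lower (log2 difference -2.46 ± 0.18 SE, edgeR adjusted p = 1.38e-05), *hoxb7a* 1.96-fold (log2 difference -0.97 ± 0.21 SE, edgeR adjusted p = 0.00553) and *hoxb1b*, a retinoic acid responsive anterior gene, 2.33-fold (log2 difference -1.22 ± 0.28 SE, edgeR adjusted p = 0.00749). *hoxc13a* was the 1 Hox gene called higher, with 31.6, 45.05 and 64.9 in the *tbx16* line and 6.45, 13.3 and 4.86 in the *msgn1* line (log2 difference 2.49 ± 0.54 SE, edgeR adjusted p = 0.00554).

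**Figure D4:**
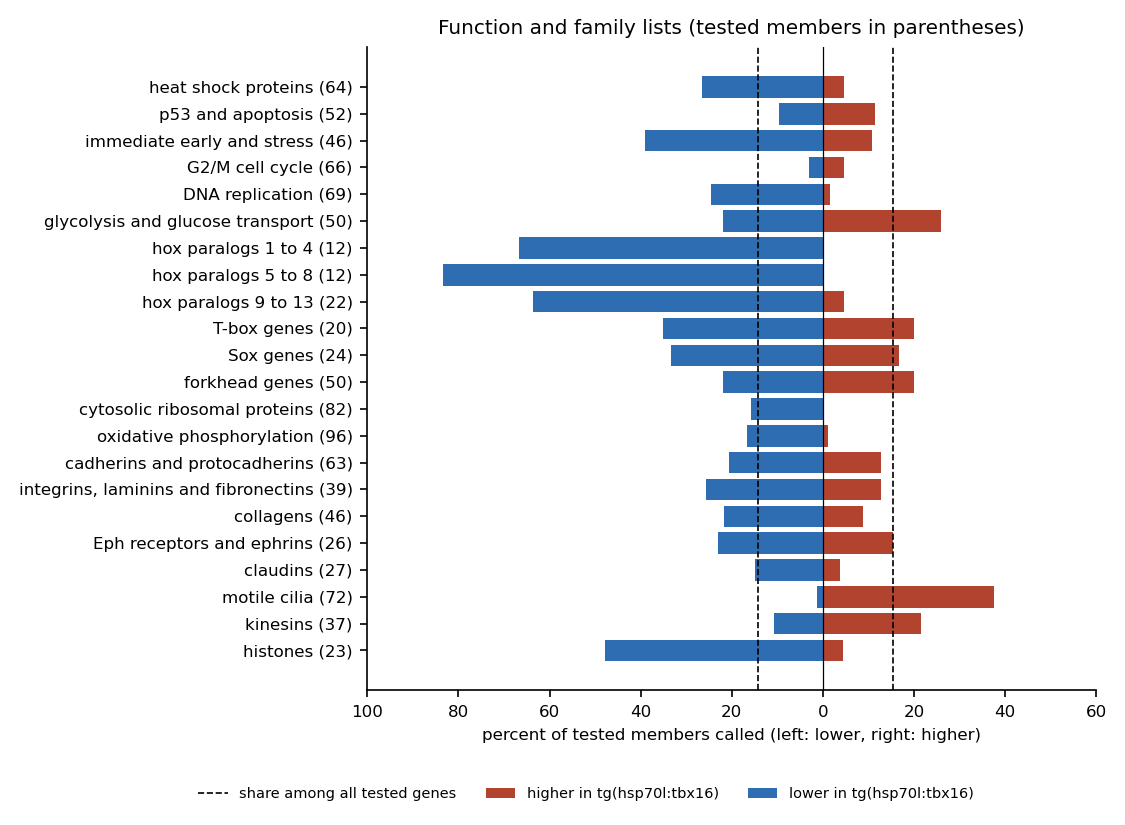
Percent of tested members of each function and family list called higher (red, right) or lower (blue, left) in the *tbx16* line than in the *msgn1* line, drawn as for the tissue lists. The Hox lists have bars only or almost only on the lower side, and motile cilia has the longest bar on the higher side.

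Other transcription factor families were mixed: T-box 7 lower and 4 higher of 20, Sox 8 and 4 of 24 (4 and 6 with library size alone), and forkhead 11 and 10 of 50 (9 and 13). The 4 higher T-box genes include *tbx16*, and so a transgene. *sox21a* was 13.96-fold lower (log2 difference -3.80 ± 0.21 SE, edgeR adjusted p = 3.44e-06) and *sox6* 3.27-fold higher (log2 difference 1.71 ± 0.22 SE, edgeR adjusted p = 3.55e-04). *foxq1b* had 119, 123 and 138 normalized counts in the *tbx16* line and 3.23, 8.84 and 3.65 in the *msgn1* line, and its log2 difference of 4.51 was 5.14 without *msgn1*-line replicate 2.

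Motile cilia genes formed the list with the highest share of higher calls, 27 of 72 higher and 1 lower (median 0.45). The 1 lower was *foxj1b*. *rsph10b*, of the radial spoke, had 232, 262 and 181 normalized counts in the *tbx16* line, 64.5, 60.8 and 86.3 in the *msgn1* line and 72.5 to 123 in wild type. It was 3.19-fold higher with no overlap (log2 difference 1.67 ± 0.29 SE, edgeR adjusted p = 0.00161), and *cfap100*, a ciliary protein gene, 2.88-fold (log2 difference 1.53 ± 0.25 SE, edgeR adjusted p = 0.00121). *rsph9*, another radial spoke gene, was not called (log2 difference 0.39 ± 0.23 SE, edgeR adjusted p = 0.199), but was with library size alone (log2 difference 0.73, edgeR adjusted p = 0.0278). The differences were small for most members, and the summed level was 46105, 51259 and 50382 in the *tbx16* line, 38322, 38046 and 39489 in the *msgn1* line and 37196 to 40499 in wild type, with no overlap between the lines. Kinesins were higher in 8 and lower in 4 of 37, with 5 higher without *msgn1*-line replicate 3 or *tbx16*-line replicate 1, and 2 lower without *msgn1*-line replicate 2 or *tbx16*-line replicate 2. Of the kinesins 32.4% were called, near the 29.7% of all genes. With library size alone 14 kinesins were higher and 2 lower.

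For the cell cycle, few mitotic genes were called, and called replication genes were mostly lower. Of 66 G2/M genes 3 were higher and 2 lower in the *tbx16* line (18 and 0 with library size alone, 9 higher without *msgn1*-line replicate 2 and 6 without *tbx16*-line replicate 1), and the cyclin and kinase genes *ccnb1* and *plk1* were not called (log2 differences -0.04 ± 0.13 and -0.11 ± 0.12 SE), with the opposite sign under library size alone (0.30 and 0.23). Of 69 replication genes 17 were lower and 1 higher (4 and 2 with library size alone). *pcna*, the sliding clamp, had 14770.2, 15935 and 19102 normalized counts in the *tbx16* line and 42764, 27344 and 33959.5 in the *msgn1* line. The ranges were apart and the difference 2.09-fold (log2 difference -1.06 ± 0.18 SE, edgeR adjusted p = 0.00147). *mcm2*, of the replicative helicase, was 2.35-fold lower (log2 difference -1.23 ± 0.14 SE, edgeR adjusted p = 1.77e-04). Of 23 histone genes 11 were lower and 1 higher. The linker histone gene *histh1l* was 2.99-fold lower (log2 difference -1.58 ± 0.29 SE, edgeR adjusted p = 0.00235) and the linker histone gene *h1-10* 2.101-fold higher (log2 difference 1.07 ± 0.20 SE, edgeR adjusted p = 0.00257). Poly(A) selection favours histone transcripts that carry a tail, so these counts are not of all histone RNA.

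Counts of ribosomal, respiratory and heat shock genes moved with single libraries of the *msgn1* line and with the scaling. The called share was 15.9% for ribosomal and 17.7% for oxidative phosphorylation genes, below the 29.7% of all genes. All called ribosomal genes were lower, a share near the 14.3% of all genes called lower. Of 82 cytosolic ribosomal protein genes 13 were lower in the *tbx16* line and none higher (median -0.40), but 35 were lower without *msgn1*-line replicate 2, and 2 or 3 when any other sample of the lines was left out, and 8 without wild-type replicate 1. With library size alone 1 was lower and the median was -0.05. Their summed level was 3547210, 3874015 and 3752645 normalized counts in the *tbx16* line, 6361246, 3931737 and 5270271 in the *msgn1* line and 3736058, 3865943 and 3229834 in wild type. *msgn1*-line replicates 1 and 3, the samples with the largest share of counts in few genes, were high and replicate 2 was near the other groups; the part of these samples in the list counts was not tested beyond leaving them out. Oxidative phosphorylation genes, 16 lower and 1 higher of 96, went to 10 lower without *msgn1*-line replicate 1 and 32 without *msgn1*-line replicate 2, and to 3 and 2 with library size alone. Heat shock protein genes, 17 lower and 3 higher of 64 (5 and 8 with library size alone), went to 11, 11 and 10 lower when *tbx16*-line replicate 1, 2 or 3 was left out and to 25 without *msgn1*-line replicate 2. *hspa8*, the constitutive Hsp70 gene, had 135966, 138194 and 150708 in the *tbx16* line, 225986, 121924 and 257029 in the *msgn1* line and 123785 to 128986 in wild type. *msgn1*-line replicate 2 lay just under wild type while replicates 1 and 3 were the highest of the series, and the difference did not pass the test (log2 difference -0.51 ± 0.23 SE, edgeR adjusted p = 0.105); it did without that sample (edgeR adjusted p = 0.00068). *hsp70l*, the gene whose promoter drives both transgenes, had 591, 618 and 274 in the *tbx16* line, 1152, 711 and 2034 in the *msgn1* line and 142 to 619 in wild type, without overlap between the lines but not past the test (log2 difference -1.39 ± 0.54 SE, edgeR adjusted p = 0.0637); it passed without *msgn1*-line replicate 2, wild-type replicate 1 or wild-type replicate 3 (edgeR adjusted p = 0.0417, 0.0449 and 0.0266) and with only the 6 samples of the lines in the fit (0.0299). The plot of summed levels shows these libraries.

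**Figure D5:**
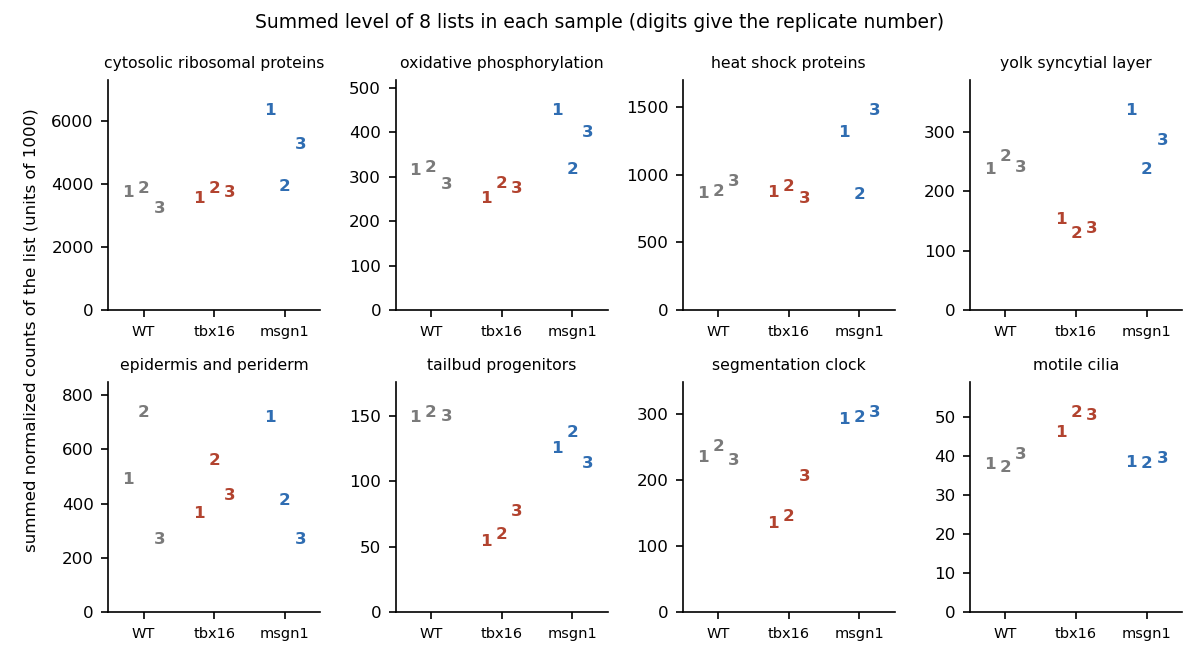
Summed normalized counts, in units of 1000, of 8 lists in each sample of wild type, the *tbx16* line and the *msgn1* line, with each sample drawn as its replicate number. Ribosomal, respiratory and heat shock sums are high in replicates 1 and 3 of the *msgn1* line and nearer the other groups in replicate 2. Tailbud progenitor, clock, yolk and cilia sums keep the lines apart in all 6 samples. Ribosomal and respiratory sums do so too, while heat shock sums overlap. The clock sum includes *msgn1* and so its transgene.

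With TMM scaling death genes were called less often than all genes (21.2% against 29.7%), in both directions. Called immediate early genes were mostly lower. Of 52 p53 and apoptosis genes 6 were higher and 5 lower in the *tbx16* line (16 and 4 with library size alone, 8 lower without *tbx16*-line replicate 3). *mdm2* and *cdkn1a*, p53 targets, were not called (log2 differences -0.20 ± 0.12 and 0.10 ± 0.22 SE), while *casp9*, an initiator caspase gene, was 2.91-fold (log2 difference 1.54 ± 0.18 SE, edgeR adjusted p = 2.21e-04) higher. Of 46 immediate early and stress genes 18 were lower and 5 higher (8 and 9 with library size alone, 10 lower without *tbx16*-line replicate 1). Among metabolic genes, glycolysis and glucose transport had 13 higher and 11 lower of 50 (16 higher and 7 lower with library size alone). The summed level of this list leaned the other way. It was 68597, 69598 and 74215 normalized counts in the *tbx16* line and 118808, 95738 and 104413 in the *msgn1* line. Wild type had 79195 to 93247, and the lines did not overlap. *hk2*, a hexokinase gene, was not called (log2 difference 0.14 ± 0.23 SE, edgeR adjusted p = 0.65), *pdk2b*, a pyruvate dehydrogenase kinase gene, was 7.36-fold higher (log2 difference 2.88 ± 0.48 SE, edgeR adjusted p = 0.00143), with a log2 difference of 3.71 without *msgn1*-line replicate 2, and *slc2a2*, a glucose transporter gene also of yolk and gut, was 6.34-fold lower (log2 difference -2.66 ± 0.61 SE, edgeR adjusted p = 0.0072), with a log2 difference of -4.06 without *tbx16*-line replicate 1.

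Adhesion and matrix genes were called in both directions. The called share was 33.3% for cadherins and protocadherins, 38.5% for integrin, laminin and fibronectin genes and 30.4% for collagens. It was 38.5% for Eph receptors and ephrins and 18.5% for claudins, against 29.7% of all genes. Cadherins and collagens were thus near the share of all genes, and claudins below it. Cadherins and protocadherins had 13 lower and 8 higher of 63 (7 and 10 with library size alone, 8 lower without *tbx16*-line replicate 2 and 5 higher without *tbx16*-line replicate 3). *pcdh18a*, a protocadherin gene, had 389.8, 139 and 209 normalized counts in the *tbx16* line, 2565, 2827 and 2629.8 in the *msgn1* line and 419.6 to 734 in wild type. It was 10.9-fold lower in the *tbx16* line, where replicate 1 was highest (log2 difference -3.45 ± 0.35 SE, edgeR adjusted p = 9.97e-05), and the *msgn1* line was above wild type in every sample. *pcdh17* was 6.26-fold higher (log2 difference 2.65 ± 0.18 SE, edgeR adjusted p = 8.70e-06). *pcdh8*, the paraxial protocadherin of presomitic mesoderm, and *cdh1*, E-cadherin, were not called (log2 differences 0.31 ± 0.22 and -0.06 ± 0.19 SE), and *cdh2*, N-cadherin, passed the test under 1.5-fold (log2 difference -0.50 ± 0.12 SE, edgeR adjusted p = 0.00932) but not with library size alone (log2 difference -0.17, edgeR adjusted p = 0.22). Integrin, laminin and fibronectin genes were lower in 10 and higher in 5 of 39 (7 and 11 with library size alone, 3 higher without *tbx16*-line replicate 1 or *tbx16*-line replicate 3). *fn1a*, fibronectin, was 2.19-fold lower (log2 difference -1.13 ± 0.15 SE, edgeR adjusted p = 4.44e-04), and *itgb5*, an integrin beta gene, had 5489, 5585 and 3607 in the *tbx16* line and 1665, 1285 and 1491 in the *msgn1* line, 3.31-fold higher (log2 difference 1.73 ± 0.18 SE, edgeR adjusted p = 9.33e-05). Collagens had 10 lower and 4 higher of 46 (4 and 8 with library size alone), among them *col5a2a*, with 6086, 6653 and 4721 in the *tbx16* line, 24826, 31916 and 22393 in the *msgn1* line and 13842, 11773 and 14439 in wild type, a 4.53-fold difference with wild type between the lines (log2 difference -2.18 ± 0.17 SE, edgeR adjusted p = 2.28e-05). Eph receptors and ephrins had 6 lower and 4 higher of 26 (3 and 8 with library size alone, 2 higher without any 1 of the *tbx16*-line samples), and claudins 4 and 1 of 27 (3 and 4 with library size alone).

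The study's lists of genes that rise or fall between cell states of the wild-type tailbud, made on single cells of other embryos, gave a view across the whole differentiation path. From the neuromesodermal progenitor (NMP) to the mesodermal progenitor, 137 of 335 genes that fall were lower in the *tbx16* line than in the *msgn1* line and 41 higher (87 and 70 with library size alone), and of 128 that rise 50 were lower and 15 higher (34 and 29 with library size alone, median 0.01 against -0.32). From the mesodermal progenitor to the progenitor zone the counts were 36 lower and 8 higher of 76 that fall (5 higher without *tbx16*-line replicate 2; 31 and 21 with library size alone), and 84 and 15 of 225 that rise (49 and 39 with library size alone). From there to the posterior presomitic mesoderm they were 70 and 12 of 168 that fall (45 and 27 with library size alone), and 29 and 8 of 66 that rise (17 and 13 with library size alone). From posterior to anterior presomitic mesoderm they were 67 and 10 of 145 that fall (50 and 17 with library size alone), and 44 and 26 of 155 that rise (23 and 36 with library size alone). On the neural path, 74 and 10 of 146 falling genes and 73 and 15 of 182 rising genes were lower and higher (55 and 18, and 57 and 31, with library size alone). With TMM scaling, more genes were lower than higher in the *tbx16* line in all 10 lists, and in 9 of them with library size alone, whether the genes fall or rise at the step. Both transgenes' own genes are in 4 of these lists. The median log2 differences ran from -0.70 to -0.14.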

How the data were processed

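RNA-seq of pooled tailbuds was deposited as 1 table of raw counts per gene for 9 samples, 3 from wild type and 3 from each of the transgenic lines. Per the labels and the study's methods, the authors trimmed reads with Trim Galore 0.5.0, aligned them to GRCz11 with HISAT2 2.1.0 and quantified genes with StringTie, and the deposited counts carry no normalization. The annotation release and strand setting, and how StringTie values became whole numbers, are not given in the sources used here. The table has 32020 rows. Its 64 rows with no gene name (0.082% to 0.101% of counts) were left out, and rows that repeat a name stayed separate and were not named.

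Groups came from the sample labels. Genes were filtered with edgeR's filterByExpr (19914 kept), scaled by TMM and fitted with all 9 samples sharing 1 estimate of the spread, and the lines were compared by the quasi-likelihood test (R 4.3.3, edgeR 4.0.16, limma 3.58.1). A gene was called at an adjusted p of 0.05 and 1.5-fold. The SE given with a log2 difference is its absolute value divided by the square root of the F statistic. It is thus derived from the test and not a separately fitted standard error. Totals of 30750552 to 49654769 counts set the counting precision, and p-values measure the spread between pooled samples, which nothing says are separate clutches. Named genes were *tbx16* and *msgn1*, the 10 largest called differences in each direction among genes with a mean of at least 100 normalized counts and no overlap, the core members of each list whatever their values, the 3 largest called differences in each direction per list (2 per transition list), and genes at 0 in 1 line with a mean of at least 20 counts in the other. Lists describe counts and medians only. The members and lists were chosen with earlier results of these data known. Alternatives were RLE factors, library size alone, DESeq2 1.42.0, 2 other filters, only the 6 samples, a replicate block, glmTreat, an adjusted p of 0.01 and leaving out each sample. Tables and plots used Python 3.11.15, numpy 2.4.6, pandas 2.3.3 and matplotlib 3.10.9.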

Additional observations from a re-analysis of the deposited data

How the results depend on the processing

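The number of genes called at 1.5-fold, 5920, was 5943 with RLE factors, 6335 with DESeq2, 5803 with no filter, 5169 with at least 10 counts in every sample and 5467 with only the 6 samples. It was 4788 to 6360 when 1 sample was left out, and the number at any fold, 7637, was then 5640 to 8010. With library size alone the split changed, to 5309 higher and 1432 lower at 1.5-fold and to 6335 and 1937 at any fold, and 14 of 62 lists had their majority reversed. The mitotic genes *ccnb1* and *plk1* changed sign under that scaling, to log2 differences of 0.302 and 0.232. The glmTreat test against 1.5-fold called 2671 genes, 1382 higher and 1289 lower. An adjusted p of 0.01 called 4134 genes at any fold, 1896 higher and 2238 lower, and 3749 at 1.5-fold, 1788 higher. Between the lines, correlations of same-numbered deviations were -0.12, 0.0746 and -0.0557, and those of differently numbered ones ran from -0.142 to 0.17. With so few samples these cannot show whether equal numbers share a day or clutch. With the replicate number as a block 5605 genes were called, 5414 of them shared with the fit without it. Of 426 named genes called, 305 were called in each setting that gave a value, and 24 of the 67 not called were called in at least 1. List counts stayed within 1.5 times in 1085 of 1134 cases under omissions and in 962 of 1134 under the other settings. Depth limits the genes at 0, where only bounds are given.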

Other observations

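Genes grouped by the stem of their symbol, for 78 stems with at least 20 tested genes, showed further families. The groups were formed from symbols after the results were known, and no test was run on them. Rows that repeat a symbol each count in these groups, unlike in the lists. Genes of nuclear pore proteins (*nup*) were lower in the *tbx16* line in 52.4% and higher in 0% of cases, DEAD-box RNA helicase genes (*ddx*) were lower in 43.8%, and translation initiation factor genes (*eif*) in 41.5%, against 14.3% of all tested genes. Mitochondrial ribosomal protein genes (*mrpl*) were lower in 45.7% and RNA polymerase subunit genes (*polr*) in 40.7%. These shares depended on the scaling: with library size alone 0 *nup* genes, 2 *ddx*, 1 *eif*, 2 *mrpl* and 2 *polr* genes were lower. The histone stem *hist* had the largest lower share of all stems, with 27 of 43 rows lower (62.8%) and 0 higher. With library size alone 19 *hist* rows were lower and 0 higher. Some of these rows repeat a histone symbol. The histone list, with 1 row per symbol, had 11 of 23 genes lower. The limit of poly(A) selection on histone counts applies here too. Aldehyde dehydrogenases (*aldh*), of which *aldh1a2*, *aldh1a3* and *aldh8a1* are in the retinoic acid list, were higher in 8 of 20 genes and lower in 1. UDP-glucuronosyltransferases (*ugt*) were called in both directions, 38.1% higher and 23.8% lower, against 15.4% and 14.3% of all tested genes.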
